A study of Mus musculus with 22 samples.

Results

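The 5 genes of the NF-κB transcription factors (Nfkb1, Nfkb2, Rela, Relb and Rel) and 5 genes that restrain or modulate them (Nfkbia, Nfkbie, Nfkbiz, Bcl3 and Tnfaip3) were examined for H3K27ac, the histone acetylation found at promoters and enhancers in use, in myeloid progenitors that had lost Bcor. These 10 genes, listed by name but chosen with earlier results of these data known, stand among 21938 protein-coding genes of the annotation. Peaks belonging to them were all those in the gene body or within 20 kb of it, which came to 45 of 23410 peaks in replicate 1, 47 of 25963 in replicate 2 and 45 of 23758 in replicate 3. All 10 genes had a peak at an own transcription start site (TSS) in every library. The 5 factor genes held the 5 highest mean levels, but the lowest of them, Rel, was above the inhibitor gene Tnfaip3 in only 1 of 3 libraries. Distal acetylation recurred in 2 or more libraries at 3 of the 10, near the 22.7% of genes with an own-TSS peak in all 3 libraries.

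NF-κB factors are dimers of Rel-homology proteins. In resting cells most are held in the cytoplasm by IκB proteins, which signals from cytokine and pattern-recognition receptors remove through the IκB kinase complex, so that the dimers enter the nucleus and bind κB sites. Several inhibitors of the pathway are themselves NF-κB targets and close a negative feedback loop, and the pathway is known in haematopoietic progenitors for its part in inflammatory signalling and in myeloid output.

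H3K27ac chromatin immunoprecipitation sequencing (ChIP-seq) had been done on KL cells (lineage-negative, cKit-positive, Sca-1-negative bone marrow progenitors) of male C57BL/6 mice of genotype scl-Cre-ERT +; Bcorfl/y. Tamoxifen was injected at 1 mg a day for 5 days when the animals were 3 to 6 months old, and cells were taken after 20 weeks. The Cre recombinase, driven by stem cell regulatory elements of Scl, deletes exons 9 and 10 of Bcor, which is X-linked (BcorΔE9-10), in cells that express it and in their descendants. The series has 22 samples in 11 groups, and the 3 H3K27ac libraries form 1 group of BcorΔE9-10 cells. No BcorWT library with this mark was analysed here, so genotypes were not compared. The methods of the study give 3 BcorΔE9-10 mice for ChIP-seq, and the spread given below is that between these libraries. In these lists 8 of 10 progenitor genes had an own-TSS peak in all 3 libraries, the exceptions being Elane with a peak in 1 library and Gata1 with none. Of 17 markers of mature granulocytes and macrophages, lymphocytes and non-haematopoietic cells none did, although Ngp had a peak in replicate 2. Among 3 lineage markers used to deplete or gate out cells Cd5 had a peak in every library (5.01 ± 0.901-fold over background, SD, n = 3), and Itgam and Ly6g had none.

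Sequences before the TSS are shown for genes whose acetylation is described below, to set the κB content of the promoters beside their acetylation. RefSeq promoters (GRCm38.p6) were matched for 7 of the 10 genes, and Nfkb1, Relb and Nfkbiz were not matched. In the 250 bases before the start, 5 of the 7 promoters held the κB consensus on either strand (Nfkb2, Rel, Nfkbia, Nfkbie and Tnfaip3), and those of Rela and Bcl3 did not. The consensus was present in 7.25% of all 32851 promoters of that length and in 8.86% of the 9763 promoters of genes with an own-TSS peak in all 3 libraries. Bases in capitals mark the κB matches, and bases lying in an annotated exon were left out. For Nfkb2, whose RefSeq start lies 417 bp inside the annotated 5′ end, the whole window was exonic, so 30 bases around the 2 overlapping matches are given. The RefSeq start of Tnfaip3 lies 247 bp inside its annotated 5′ end, so the bases shown for it lie within the annotated gene.

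Nfkb2 (chr19:46304688-46304717, plus strand, factor gene with the highest acetylation): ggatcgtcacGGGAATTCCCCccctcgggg

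Rel (chr11:23770971-23771219, minus strand, factor gene with the lowest mean): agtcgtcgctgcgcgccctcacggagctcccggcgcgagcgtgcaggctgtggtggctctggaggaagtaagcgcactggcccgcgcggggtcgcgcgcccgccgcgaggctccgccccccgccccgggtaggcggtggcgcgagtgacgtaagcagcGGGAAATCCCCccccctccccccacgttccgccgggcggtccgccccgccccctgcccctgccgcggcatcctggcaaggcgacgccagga

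Tnfaip3 (chr10:19015411-19015547, minus strand, inhibitor gene with the highest mean): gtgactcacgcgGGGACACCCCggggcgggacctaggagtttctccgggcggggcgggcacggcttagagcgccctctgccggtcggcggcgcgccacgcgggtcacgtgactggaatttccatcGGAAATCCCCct

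Nfkbia (chr12:55492648-55492897, minus strand, mid-level acetylation): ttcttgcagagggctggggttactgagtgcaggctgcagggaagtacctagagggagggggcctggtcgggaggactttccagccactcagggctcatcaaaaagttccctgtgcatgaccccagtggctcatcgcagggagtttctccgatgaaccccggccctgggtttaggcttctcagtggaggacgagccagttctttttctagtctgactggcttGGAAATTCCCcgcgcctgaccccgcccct

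Nfkbie (chr17:45555450-45555699, plus strand, mid-level acetylation): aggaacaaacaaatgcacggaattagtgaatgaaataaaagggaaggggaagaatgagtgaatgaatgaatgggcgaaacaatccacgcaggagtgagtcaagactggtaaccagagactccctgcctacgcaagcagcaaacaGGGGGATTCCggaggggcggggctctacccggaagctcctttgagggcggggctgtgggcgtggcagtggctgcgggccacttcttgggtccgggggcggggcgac

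Bcl3 (chr7:19822825-19823005, minus strand, lowest acetylation and no κB match): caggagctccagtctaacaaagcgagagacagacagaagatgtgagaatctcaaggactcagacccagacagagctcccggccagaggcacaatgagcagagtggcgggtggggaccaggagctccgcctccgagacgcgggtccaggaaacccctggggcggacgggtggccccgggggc

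Counted from the RefSeq start, the Nfkb2 matches began at -39, -38 and -11, and those of Rel at -92 and -91, so that the first 2 of Nfkb2 and both of Rel overlapped on opposite strands. The Nfkbia match began at -29, the Nfkbie match at -106, and the Tnfaip3 matches at -125 and -12. The κB site of the immunoglobulin kappa enhancer was in none of the 7 promoters and in 0.14% of all promoters. The GC box GGGCGG was in 6 of 7 (not in Nfkb2), against 32.7% of all promoters and 59.1% of those of acetylated genes. CCGGAAG, a core bound by ETS factors, was in 1 of 7 (Nfkbie) against 15.7% of the promoters of acetylated genes. TGACTCA, the AP-1 site, was in 2 of 7 (Nfkbie and Tnfaip3) against 2.78%, and TGACGTCA, the cAMP response element, was in 0 of 7 against 3.03%. All motifs were searched on both strands. The 7 windows had a median GC content of 64.8% (57.6% to 77.6%) and a median of 21 CpG dinucleotides, where the promoters of acetylated genes had medians of 60.4% and 17. Nfkbia had the fewest CpGs, 8, and Rel the most, 37. A match describes letters in a window and is no evidence of binding.

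The factor genes carried strong acetylation at their TSSs. The level used here is the fold enrichment that the peak caller gives for the highest summit within 2.5 kb of any annotated TSS of the gene, the number of fragments there relative to what the surroundings of the same library predict. It is not scaled between libraries, so the percentile among the 10137, 10381 and 10348 protein-coding genes with such a peak is given beside it. Because whole cell populations were assayed, more cells carrying the mark and more mark per cell cannot be told apart.

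Nfkb2, on chromosome 19 from 46304320 to 46312385, encodes p100, the precursor of p52 in the non-canonical pathway. Replicates 1, 2 and 3 gave levels of 26.9, 28.3 and 36.0, averaging 30.4 ± 4.91 (SD, n = 3). This was the highest of the 10 genes in each library and lay between percentiles 97.4 and 99.6. The summits rested on 103, 112 and 131 fragments and lay 281, 230 and 195 bp downstream of the nearest annotated start. The peak also lay within 2.5 kb of the start of the gene AC114539.1, and the signal of these genes cannot be told apart. Relb, on chromosome 7 from 19606217 to 19629438, encodes the usual partner of p52. Levels of 26.7, 21.4 and 30.2 gave a mean of 26.1 ± 4.41, with percentiles of 94.4 to 98.1. Its summits sat at the nearest annotated start, 16 bp downstream in replicate 1 and 5 bp upstream in replicates 2 and 3. From the 5′ end of the gene they lay 206, 185 and 185 bp downstream. Nfkb1, on chromosome 3 from 135584655 to 135691547, encodes p105, the precursor of the p50 subunit. It had the smallest spread of the 10 genes, at 24.0, 24.2 and 24.7 (24.3 ± 0.382), and stayed between percentiles 94.2 and 97.2.

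Rela, on chromosome 19 from 5637483 to 5648130, encodes p65, the main transactivating subunit of the canonical pathway. Its levels were 23.6, 17.7 and 20.7 (20.7 ± 2.92), and its summits lay at -301, -289 and -278 bp from the nearest start, on its upstream side. Rel, on chromosome 11 from 23736847 to 23770970, encodes c-Rel, best known from lymphocytes. Levels of 22.0, 15.4 and 19.4 gave a mean of 18.9 ± 3.33 and percentiles between 81.2 and 93.3. Replicate 2 was the lowest library for Rela, Relb and Rel but not for Nfkb1 or Nfkb2, and the ranges of Rela and Rel overlapped.

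**Figure D1:**
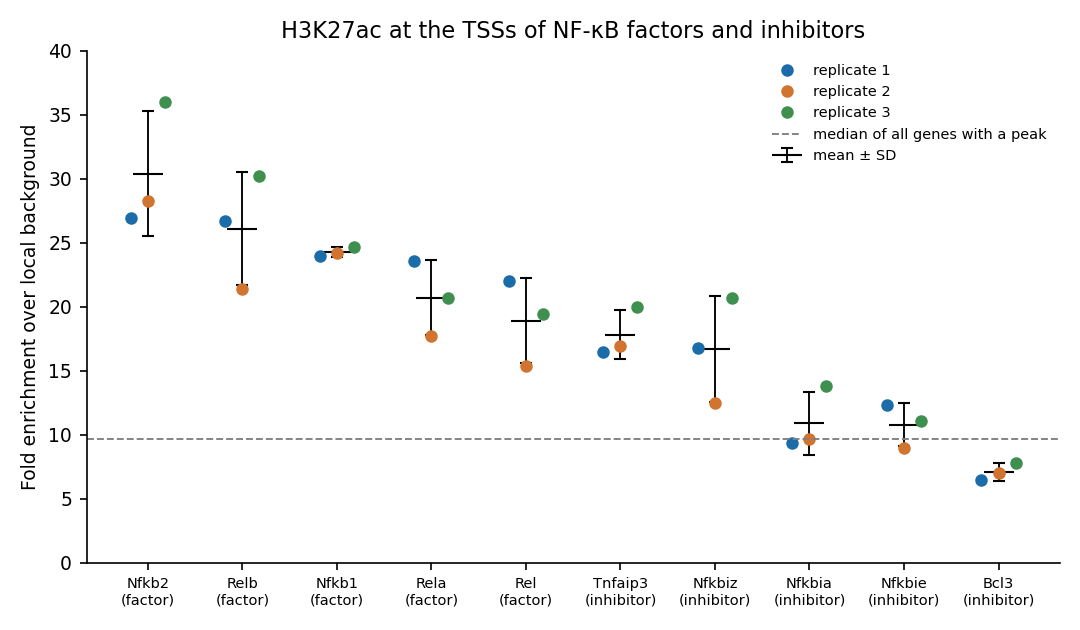
Fold enrichment of H3K27ac over the local background at the highest summit within 2.5 kb of an own TSS (y axis) for each of the 10 genes (x axis, in order of their means). Points are the 3 libraries, black bars the mean ± SD, and the dashed line the mean over libraries of the median of all protein-coding genes with such a peak (9.69). Means fell from 30.4 for Nfkb2 to 7.1 for Bcl3, with the 5 factor genes first.

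The inhibitor genes spread from near the factor level to below the genome-wide median. Tnfaip3, on chromosome 10 from 19000910 to 19015657, encodes A20, a ubiquitin-editing enzyme that ends NF-κB signalling. It was at 16.5, 16.9 and 20.0 (17.8 ± 1.91), between percentiles 83.4 and 86.9. Nfkbiz, on chromosome 16 from 55811375 to 55838899, encodes IκBζ, a nuclear IκB that acts as a coactivator at some genes. It was at 16.8 in replicate 1 and 20.7 in replicate 3 and lowest in replicate 2, at percentile 69.4 with 49 fragments (16.7 ± 4.11). Its highest library exceeded its lowest 1.66 times, the widest relative spread of the 10 genes, and in replicate 3 the highest summit lay at a start inside the gene. Nfkbia, on chromosome 12 from 55489410 to 55492647, encodes IκBα, the main cytoplasmic inhibitor and a feedback target. Levels of 9.37, 9.67 and 13.8 gave a mean of 10.9 ± 2.45. The percentiles of 52.5, 52.6 and 66.1 placed it near the middle of all genes with a peak.

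Nfkbie, on chromosome 17 from 45555703 to 45563169, encodes IκBε. It was at 12.3, 8.93 and 11.1 (10.8 ± 1.7), between percentiles 47.1 and 68.0. Bcl3, on chromosome 7 from 19808462 to 19822770, encodes a nuclear IκB that binds p50 and p52 homodimers. It was the lowest of the 10 in every library at 6.46, 7.05 and 7.8 (7.1 ± 0.675), and the only one below the median of all genes throughout, at percentiles 29.3, 32.6 and 30.5. These values come from different places. In replicates 1 and 3 the highest summit lay near a start inside the gene, and in replicate 2 upstream of the 5′ end. The peaks of replicates 1 and 3 also lay within 2.5 kb of the start of Gm16174, so their gene cannot be told apart. The peak nearest the 5′ end was at 6.23, 4.52 and 5.11. The highest summits of Bcl3 held 19, 21 and 23 fragments, or 1.05 per M reads (95% exact Poisson interval 0.632 to 1.64), 1.11 (0.687 to 1.7) and 1.19 (0.754 to 1.79). Intervals of this kind overlapped between the 3 libraries for all 10 genes, and they cover counting error only.

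Across the 10 genes the median level was 19.4, 16.1 and 20.3 in the 3 libraries (18.6 ± 2.21), where the median of all genes with a peak was 9.07, 9.26 and 10.7 (9.69 ± 0.908). The factors alone had medians of 24.0, 21.4 and 24.7 and the inhibitors 12.3, 9.67 and 13.8. Every factor gene had a higher mean than each of these 5 inhibitor genes, which did not hold for all inhibitors of the wider pathway (below). Within libraries the groups separated in replicate 1, where the lowest factor was at 22.0 and the highest inhibitor at 16.8. They overlapped in replicate 2 (15.4 for Rel against 16.9 for Tnfaip3) and in replicate 3 (19.4 for Rel against 20.7 for Nfkbiz). Without replicate 1, 4 of the 5 factor means exceeded every inhibitor mean. All 10 genes had an own-TSS peak in all 3 libraries, as did 43.9% of all protein-coding genes. A level above percentile 75 in all 3 libraries was found for 6 of 10 genes (the 5 factors and Tnfaip3), against 19.6% of the 9637 genes with a peak in all 3. Above percentile 90 in all 3 were 3 of 10 (Nfkb1, Nfkb2 and Relb), against 6.93%.

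In the order of the means the ranges of 7 of the 9 neighbouring pairs overlapped. Nfkb1 lay above Rela and Nfkbie above Bcl3 without overlap. The log2 difference within libraries was 0.24 ± 0.21 (SD, n = 3) for Nfkb1 over Rela and 0.59 ± 0.30 for Nfkbie over Bcl3, each positive in 3 of 3 libraries. The exact sign-flip permutation test, two-sided, gave p = 0.25 for both, which is the smallest value that 3 libraries allow, so no pair could pass a threshold of 0.05. Nfkbiz over Nfkbia had a log2 difference of 0.60 ± 0.24 in 3 of 3 libraries, although the ranges overlapped. At the boundary between factors and inhibitors, Rel over Tnfaip3 had a log2 difference of 0.0825 ± 0.295, positive in only 1 of 3 libraries. Part of the order depended on the local background. With fragments per M reads in place of fold enrichment, Nfkbia moved from place 8 to 6 (2.94, 3.01 and 4.31) and Tnfaip3 from 6 to 8 (2.77, 2.8 and 3.32), and Nfkb1 went from 3 to 5 among the factors. The background under the Nfkbia summit was 4.77 to 5.0 fragments, and that under the Nfkbie summit 1.93 to 2.02. On this scale too the factors held the first 5 places by mean, although in replicate 3 Nfkbia (4.31) lay above the factor Nfkb1 (4.05).

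Height and breadth of the acetylation were not parallel. The bases under own-TSS peaks had a median of 2024, 1924 and 2332 bp over the 10 genes (2094 ± 213), against 902, 961 and 985 bp (949 ± 42.7) for all genes with a peak. Relb was the exception, with 826, 707 and 788 bp, between percentiles 33.0 and 44.9 for breadth and between 94.4 and 98.1 for height. Bcl3 had the opposite form, with 2054, 1904 and 2619 bp in 5, 6 and 7 separate low peaks, between percentiles 88.1 and 94.8 for breadth. Nfkb1 was broadest at 4208, 4306 and 4858 bp, of which 1561, 2110 and 1767 bp lay at its 5′ end and the rest at starts inside the gene. Breadth above percentile 90 in all 3 libraries was seen for 4 of 10 genes (Nfkb1, Rel, Nfkbie and Nfkbiz), against 7.0% of genes. The measure sums the peaks at all starts of a gene. For Nfkbiz 1172, 1078 and 1074 bp lay at the 5′ end. The other 1505, 1925 and 1683 bp lay at a start 16.8 kb inside the gene.

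**Figure D2:**
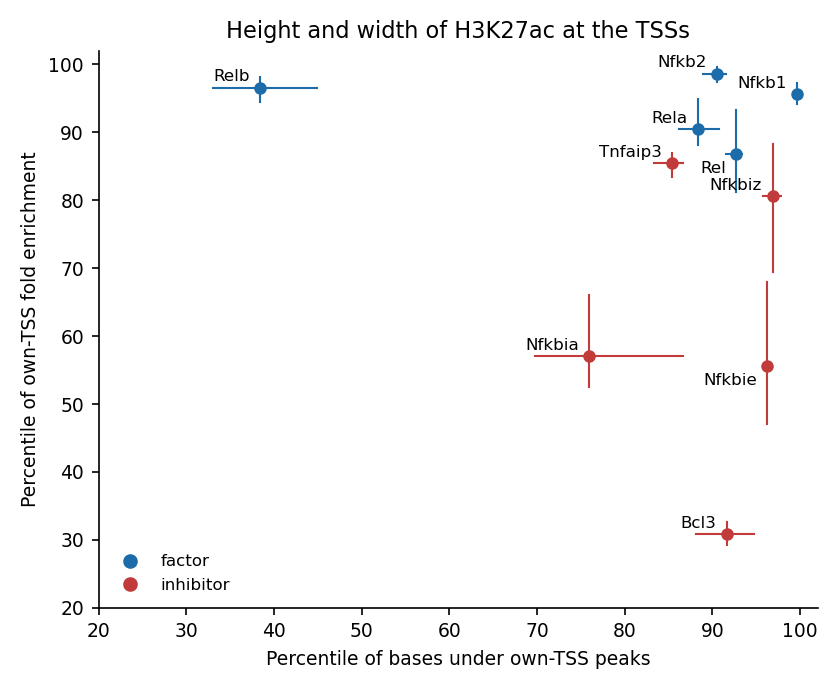
Percentile of bases under own-TSS peaks (x axis) against percentile of own-TSS fold enrichment (y axis), both among protein-coding genes with such a peak. Points are means of the 3 libraries and lines span their lowest and highest values. Factors (blue) lie at the top, Relb stands apart at the left with narrow peaks, and Bcl3 (an inhibitor, red) lies low with broad coverage.

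Acetylation also marked starts inside some of these genes. Grouping annotated starts less than 2.5 kb apart gave 22 start groups for the 10 genes, of which 14 had a peak in all 3 libraries and 8 had none in any. In Nfkb1 a start group at 135608270 to 135608483, which lies 83.1 kb downstream of the 5′ end and includes 1 protein-coding transcript, was at 12.47, 11.4 and 14.7 (12.9 ± 1.71). The ratio of this start to the 5′ end was 0.52, 0.471 and 0.596 (0.529 ± 0.0633). A further start group at 87.7 kb, with non-coding transcripts only, was at 4.6, 4.05 and 4.67 (4.44 ± 0.341), and the 3 other internal groups of Nfkb1 had no peak. In Nfkbiz the start at 55822138, which lies 16.8 kb inside and also gives a protein-coding transcript, was at 14.3, 12.0 and 20.7 (15.7 ± 4.52), and the 5′ end at 15.4 ± 2.47, with 16.8 and 16.7 in replicates 1 and 3. The ratio of the inner start to the 5′ end was 0.847, 0.96 and 1.24 (1.02 ± 0.202), so neither start was higher throughout. In Bcl3 the start at 19815996, which lies 6.77 kb inside, was at 6.46, 6.95 and 7.8 against 6.29, 7.05 and 6.76 at the 5′ end, a ratio of 1.06 ± 0.0883. The exact sign-flip permutation test of these ratios, two-sided, gave p = 0.25 for both starts of Nfkb1, 1.0 for Nfkbiz and 0.5 for Bcl3. The peaks at the inner start of Bcl3 also lay within 2.5 kb of the start of Gm16174, so the gene to which they belong cannot be told apart. The weakest summits in the lists held 8, 8 and 9 fragments, so weaker acetylation at the unmarked starts was not detectable.

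**Figure D3:**
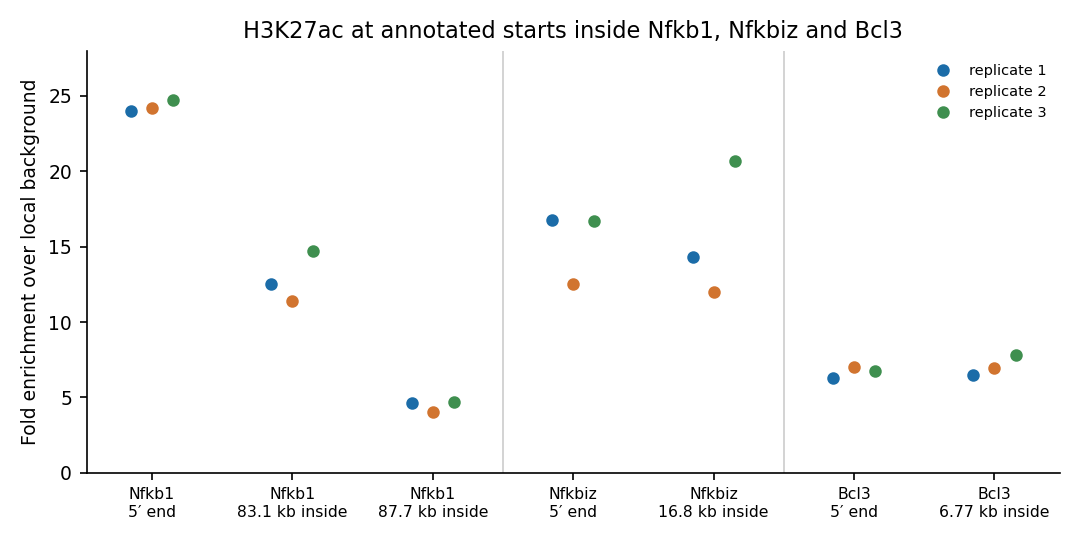
Fold enrichment of H3K27ac (y axis) at the 5′ end and at annotated starts inside Nfkb1, Nfkbiz and Bcl3 (x axis), with 1 point for each of the 3 libraries. The start 83.1 kb inside Nfkb1 lies at 0.529 of the level of the 5′ end on average, whereas the points of the inner starts of Nfkbiz and Bcl3 overlap those of their 5′ ends.

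Distal acetylation, more than 2.5 kb from any annotated TSS, had a median of 0 regions in at least 2 libraries both for the 10 genes and for all genes with an own-TSS peak in all 3. Joining overlapping peaks of the 3 libraries gave 55 regions in the windows of the 10 genes, of which 30 were at own TSSs, 9 at TSSs of other genes and 16 distal. Of the own-TSS regions 20 were in all 3 libraries, whereas of the distal regions 3 were in all 3, 2 in 2 and 11 in 1 library only. The same split was not counted over all genes, so it is not shown to be particular to these 10. The 3 distal regions in all libraries were 1 in an intron of Nfkb1 and 2 just beyond the 3′ end of Rela. The Nfkb1 region (chr3:135686455-135686808) lay 4.92 kb downstream of the 5′ end, at 4.22, 5.31 and 4.43. The Rela regions (chr19:5648404-5648836 and chr19:5648978-5649539) lay 0.49 and 1.13 kb beyond the 3′ end between genes, at 6.48, 5.0 and 5.69 and at 4.44, 5.75 and 7.13. A second intronic region of Nfkb1 (chr3:135636164-135636620) was at 3.35 and 4.22 in replicates 1 and 2. A region 15.1 kb beyond the 3′ end of Nfkbia (chr12:55474129-55474481) was at 4.0 and 4.88 in replicates 2 and 3.

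The 200 bases around the mean summit of the Nfkb1 region and of the second Rela region are shown (plus strand), as examples of the distal regions present in every library. The summits of the second Rela region spread over 203 bp, and that of replicate 1 lay outside the window shown. The capitals mark GGGCGG.

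Nfkb1 intron (chr3:135686525-135686724): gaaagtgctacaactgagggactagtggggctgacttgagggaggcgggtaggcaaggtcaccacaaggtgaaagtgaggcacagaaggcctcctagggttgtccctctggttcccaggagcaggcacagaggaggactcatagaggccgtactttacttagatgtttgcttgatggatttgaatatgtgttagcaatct

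Rela 3′ (chr19:5649097-5649296): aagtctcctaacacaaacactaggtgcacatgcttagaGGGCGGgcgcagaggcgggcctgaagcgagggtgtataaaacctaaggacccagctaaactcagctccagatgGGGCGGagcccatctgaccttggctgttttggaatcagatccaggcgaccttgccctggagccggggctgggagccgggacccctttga

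None of the 3 distal windows held the κB consensus, which was in 4.8% of the 2460 distal regions found in all 3 libraries. GGGCGG occurred in 1 of 3, on the plus strand at both places, against 7.15%, while the ETS core was in 0 of 3 against 2.36%, the AP-1 site in 0 of 3 against 3.78% and the cAMP response element in 0 of 3 against 0.122%. Their GC contents were 51.5%, 51.0% and 59.0%, with a median of 51.0% over the 2460.

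Nfkb2, Relb, Rel, Nfkbiz and Tnfaip3 had no distal region in any library within 20 kb. At least 1 distal region in 2 or more libraries was found at 3 of 10 genes (Nfkb1, Rela and Nfkbia), against 22.7% of genes with an own-TSS peak in all 3. A region 0.228 kb beyond the 3′ end of Nfkbia (chr12:55488975-55489390), at 6.48, 4.17 and 5.92, fell inside 2.5 kb of an annotated start in replicates 2 and 3 and just outside it in replicate 1. Within libraries the median of own-TSS peaks exceeded that of distal peaks 1.54, 1.68 and 1.21 times (1.47 ± 0.241), with 30, 25 and 30 own-TSS peaks and 7, 12 and 6 distal peaks. The same ratio over all protein-coding genes was 1.61 ± 0.0703, and the difference lay within 1 SD. With a TSS window of 1 kb the distal regions in at least 2 libraries rose from 5 to 13 and the ratio became 2.35, against 1.73 for all genes.

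**Figure D4:**
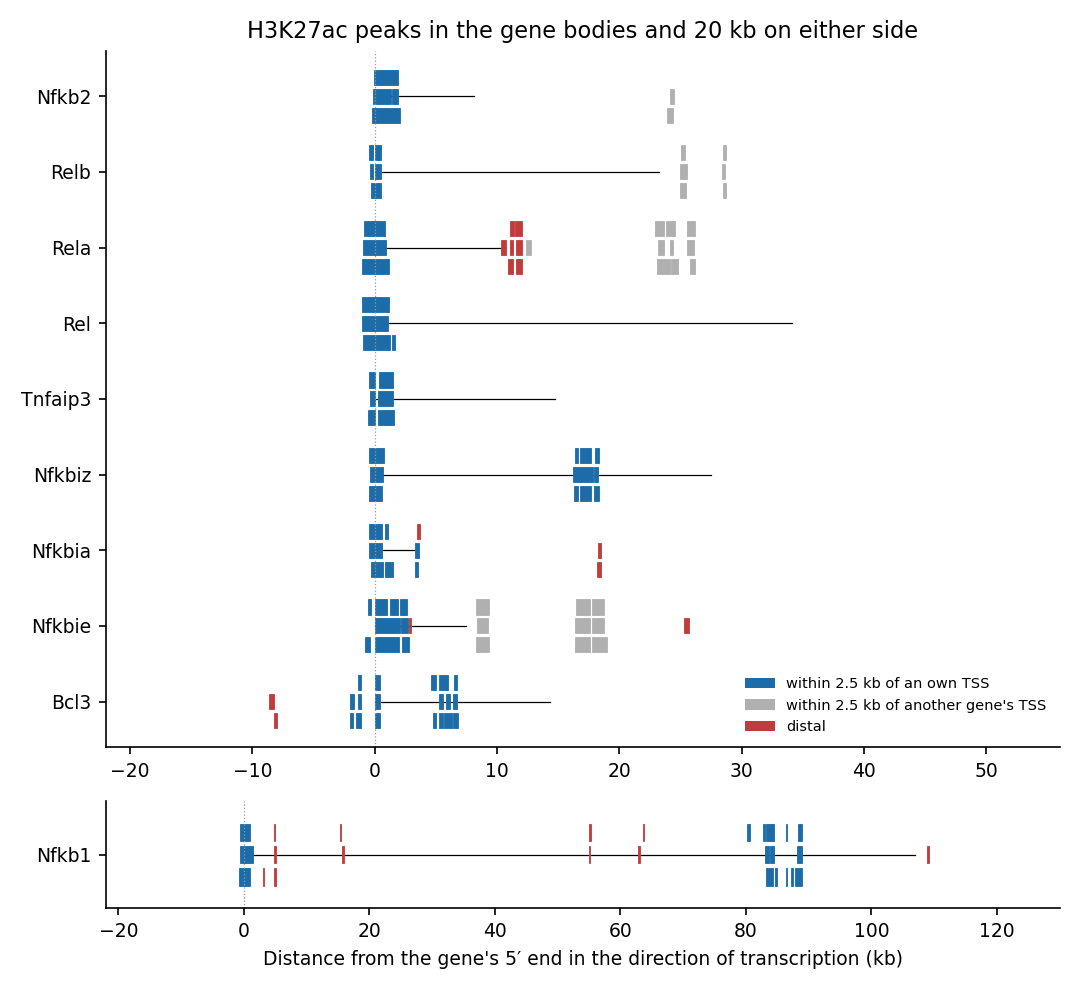
Peaks in the window of each gene, placed by distance in kb from the 5′ end in the direction of transcription (x axis), with Nfkb1 on a scale of its own. The 3 bars of a gene are replicates 1, 2 and 3 from top to bottom, black lines are gene bodies, and colours separate peaks at own TSSs, at TSSs of other genes, and distal. Each gene has own-TSS peaks in every library (20 of 30 own-TSS regions are in all 3), and 11 of 16 distal regions are in 1 library only. These shares were not counted over all genes.

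Neighbouring genes contributed part of the signal around the family. The 9 regions at other TSSs lay at Sipa1 near Rela, at Clasrp and Gm26890 near Relb, at Slc35b2 and Hsp90ab1 near Nfkbie and at Fbxl15 and Psd near Nfkb2. The highest mean among them was that of a region at Hsp90ab1, which encodes a constitutive heat-shock protein. It was at 19.9, 11.3 and 25.3, above Nfkbie itself in each library, with a second Hsp90ab1 region at 9.07, 12.9 and 13.3. The Sipa1 regions reached 5.8, 7.61 and 6.45, well under the level at the Rela start.

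Super-enhancers (SEs), in general long stretches of dense acetylation, were sought by joining neighbouring peaks at the default distance of the ROSE method. Regions past slope 1 of the ranked curve of summed fold enrichment times length were kept. This left 1383 of 11779, 1083 of 12327 and 1190 of 11525 regions. A region could pass as 1 peak at a start, as those of Nfkb2 and Rel did in replicate 1. A call here therefore need not mean a cluster of enhancers. Nfkb1, Nfkb2, Rela, Rel and Nfkbie were assigned one in all 3 libraries and Tnfaip3 in 2. In at least 2 libraries this made 6 of 10 genes, against 17.4% of genes with an own-TSS peak in at least 2. The paper's own SE analysis, done with Homer, reported far fewer SEs in at least 2 of these libraries than the regions kept here in any 1 library. Nfkb1, Relb and Tnfaip3 are in its list of differentially expressed transcription factors. None of them is among the SE-associated factors of that kind that it names. The calls for Nfkb1 and Tnfaip3 given here therefore differ from those of the paper, and the 2 analyses are not alike in stringency. Nfkb2 ranked 148, 257 and 71 with a stretch of 2.0 to 2.24 kb at its start. Rel ranked 211, 647 and 548, also from its start alone. Nfkb1 ranked 381, 140 and 477. The region of Rela, 27.1 to 27.2 kb long at ranks 138, 193 and 199, was shared with Sipa1. The region of Nfkbie, at ranks 108, 100 and 54, was shared with Slc35b2 and with Hsp90ab1, whose highest peak exceeded that of Nfkbie. Tnfaip3 sat at the limit, at ranks 1130, 1284 and 1054, past slope 1 in replicates 1 and 3 only, and without either of these libraries 5 genes were counted in place of 6. Relb, narrow as it was, ranked 2437, 3688 and 1785 despite its height.

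These counts changed with the definition, for all genes as well. With peaks near TSSs left out before stitching, 1 of 10 genes had an SE in 2 or more libraries, against 2.41% of the same genes. With summed peak length as the signal there were 3 of 10 (Nfkb1, Rela and Nfkbie), against 10.0%. Joining peaks within 5 kb gave 7 of 10, against 18.6%, with Nfkbiz added in 2 libraries and Tnfaip3 in all 3. Joining within 20 kb gave 6 of 10, against 16.4%, with Nfkbiz in all 3 libraries and Tnfaip3 in none. The 1 gene left without TSS peaks was Tnfaip3, through a region centred -46.6, -46.7 and -47.6 kb from its 5′ end (negative values lie upstream) at ranks 213, 196 and 99, which lies outside the 20 kb window and is assigned only because its closest protein-coding start is that of Tnfaip3.

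The wider pathway was covered by a list of 55 further genes, of which 43 had an own-TSS peak in all 3 libraries, 10 in none and 2 in 1 or 2. Of all protein-coding genes 43.9% had such a peak in all 3. Upstream of the factors, 6 of 9 receptors had such a peak. The highest was Tnfrsf1a, the main TNF receptor, at 11.9 ± 2.98 (lowest in replicate 1, 8.52), and the lowest Tlr4, the lipopolysaccharide receptor, at 4.44, 4.6 and 3.61 (4.21 ± 0.534). Cd40, Tnfrsf11a (RANK) and Tnfrsf13c (BAFF receptor) had none. All 13 adaptors and ubiquitin ligases had one, from Tradd at 4.89 ± 1.26 to Tab2, which links ubiquitin chains to the TAK1 kinase, at 21.3 ± 2.32. All 7 kinases had one, from Ikbke at 5.53 ± 0.849 to Ikbkb, the catalytic IκB kinase of the canonical pathway, at 24.9, 25.8 and 25.2 (25.3 ± 0.45). The level at Ikbkb was thus within the range of the factors. All 6 other inhibitors had one, from Nfkbib and Nfkbid at 10.3 to the deubiquitinase Cyld at 25.5, 22.6 and 18.2 (22.1 ± 3.66). The mean of Cyld was above those of the factors Rela (20.7) and Rel (18.9). The rest of these inhibitors, with Tnip2 the highest at 17.1, lay below every factor mean.

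Among genes that NF-κB is known to induce, 11 of 20 had an own-TSS peak in all 3 libraries, beside 43.9% of all protein-coding genes. A further 7 had no such peak in any library and 2 had it in some (Ccl4 in 2 and Cd83 in 1). The highest was Birc3, an inhibitor of apoptosis, at 13.9, 11.2 and 19.2 (14.8 ± 4.04), and the lowest Ccl3 at 3.27, 4.41 and 3.54 (3.74 ± 0.597). Those with none were the cytokine and chemokine genes Il6, Il1b, Cxcl1, Cxcl2 and Ccl2, the adhesion gene Vcam1 and Nos2. The median of mean levels was 6.44 for targets with a peak in all 3 libraries, 6.64 for receptors, 11.0 for kinases, 11.3 for adaptors and 13.7 for other inhibitors. A level above percentile 75 in all 3 libraries occurred in 5 of the 43 genes (Ripk1, Tab2, Ikbkb, Map3k7 and Cyld), beside 19.6% of all genes with a peak in all 3.

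**Figure D5:**
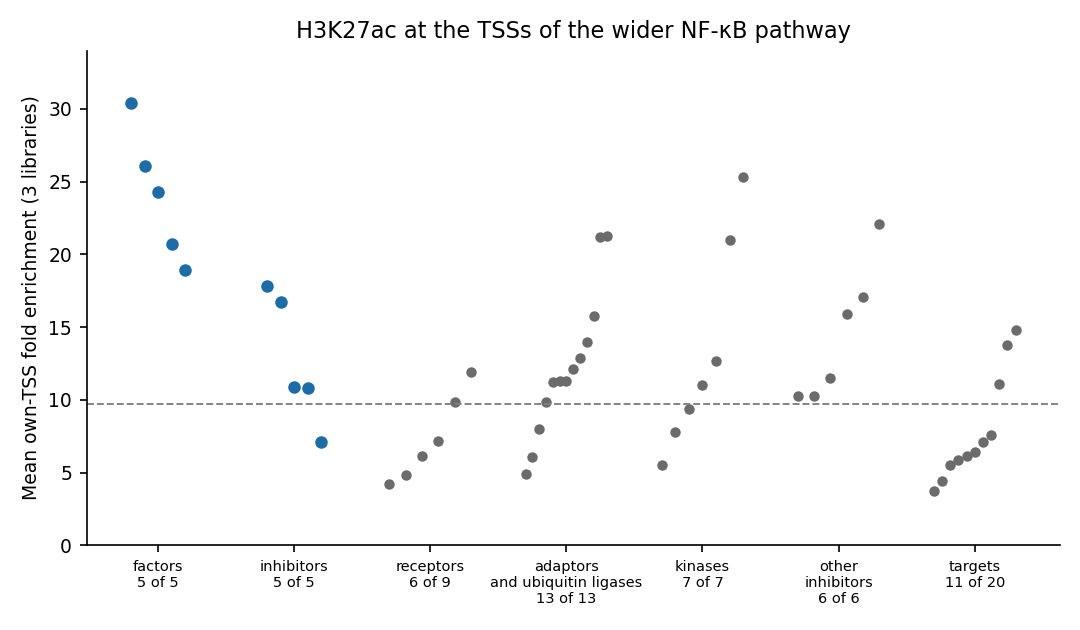
Mean own-TSS fold enrichment over 3 libraries (y axis) of the factors and inhibitors (blue) and of the wider pathway by role (grey), with 1 point for each gene that had a peak in all 3 libraries and the number of such genes of all in the class under each name. The dashed line is the median of all protein-coding genes with a peak. Factors lie between 18.9 and 30.4, and targets between 3.74 and 14.8.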

How the data were processed

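H3K27ac ChIP-seq of 3 BcorΔE9-10 KL libraries was analysed, and the other 19 samples were not analysed here. Reads were mapped by the authors with Bowtie2 (GRCm38), cleared of duplicates (per the peak names in the lists), and passed library by library to MACS2 2.1.1, and the submitters' processing notes also name cutadapt 1.7. The control and caller settings are not given in the sources used here. The deposited peak lists give each summit a fold enrichment, a ratio to the local background within the library, the −log10 of its p-value and q-value, and a score, which the authors' caller sets to 10 times the −log10 q. The score was not used. The largest q was 0.0499.

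A peak split over several summits entered once, at its highest summit. Gene models were GENCODE M21 on GRCm38, counted from 1. A peak within 2.5 kb of a TSS of the gene was own-TSS, within 2.5 kb of another annotated TSS other-TSS, and otherwise distal. Peaks overlapping by 1 bp were joined into regions. Fold enrichment and p-value of each summit were solved for fragments and background, which was tested on simulated data and worked for 100% of rows. Depth came to 18.0, 18.9 and 19.3 M reads, given fragments of 200 bp. PCR reads without molecular identifiers are not independent molecules.

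The 10 genes, the wider pathway list, the markers and the motifs were chosen with earlier results of these data known. Named genes were all 10, neighbours whose TSS lies within 2.5 kb of a peak in a window, and from the pathway list the highest and lowest of each role and those with no peak. Neighbouring genes were compared with the exact sign-flip permutation test over libraries. Python 3.11.15, pandas 2.3.3, scipy 1.17.1 and pysam 0.24.0 were used. Alternatives changed the TSS window, gene window, q threshold, measure, overlap, stitching and libraries. Those for the order of the genes and for factors against inhibitors were chosen after seeing the data.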

Additional observations from a re-analysis of the deposited data

How the results depend on the processing

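All 10 genes kept an own-TSS peak in every library under each of the 6 alternatives tried for that count. Leaving out a library or widening the TSS window to 5 kb could not lower the count. Only the q threshold and the 1 kb window could have done so. The median level was 18.6 with rows of −log10 q of at least 5 and with TSS windows of 1 and 5 kb, and 17.8 to 19.9 with a library left out. In other units it was 72.0 (−log10 p) and 3.79 (fragments per M reads). The distal regions in at least 2 libraries, 5 as reported, numbered 3 with −log10 q of at least 5, 13 and 2 with TSS windows of 1 and 5 kb, 2 in the gene body alone, 11 within 50 kb, and 3 to 4 without 1 library (3 without replicate 2). The ratio of own-TSS to distal level was 2.35 with a TSS window of 1 kb, 1.72 with 5 kb, 1.96 with −log10 p and 1.79 with fragments per M reads, against 1.73, 1.51, 2.47 and 1.9 for all genes, and 1.37 to 1.61 without 1 library. Below that of all genes as reported, it lay above it with both of these windows, without replicate 3 (1.61 against 1.57) and with −log10 q of at least 5 (1.64 against 1.57). Genes with an SE in at least 2 libraries numbered 3 with summed peak length, 1 without TSS peaks, 7 and 6 with joining within 5 and 20 kb, and 5 to 6 without 1 library. Within 20 kb the call of Tnfaip3 was lost (0 of 3 libraries) and Nfkbiz was called (3 of 3), and within 5 kb Nfkbiz was called in 2. Neighbouring pairs without overlap numbered 1 with fragments per M reads and 2 to 4 without 1 library (4 without replicate 2). Factors above every inhibitor among the 10 genes numbered 4 to 5 without 1 library. Bcl3 was at 6.31 with a TSS window of 1 kb. The causes were not tested. No paired analysis was possible because the peak lists used here come from 1 group. Summits under 8 fragments are not represented.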

Other observations

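Beyond the 20 kb windows, 6 distal regions in at least 2 libraries lay within 50 kb of the 10 genes, and they were looked at after the values within 20 kb had been seen. The highest mean among those in all 3 libraries was at chr10:19061272-19063571, -46.8 kb from the 5′ end of Tnfaip3 (negative values lie upstream), whose start was the closest protein-coding one. It was 2300 bp long and at 5.7, 6.18 and 7.86 (6.58 ± 1.14, SD, n = 3), at percentiles 88.4, 92.7 and 94.6 of distal peaks. Nfkbia, the IκBα gene, had 3 such regions, from 27.1 to 45.6 kb downstream of its 5′ end, of which chr12:55465063-55465952 was at 4.1, 3.75 and 4.67. Nfkb1 had 1, -27.5 kb from its 5′ end, at 2.85, 3.75 and 4.34. The remaining region lay in Pus10, 74.7 kb downstream of the 5′ end of Rel, with peaks in replicates 2 and 3 only. Distance gives no link between these regions and the genes, and contacts were not measured.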
